A study of Mus musculus with 10 samples.

Results

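The 10 genes described here set how long a neutrophil lives and how it senses the colony-stimulating factors (CSFs) that keep it alive. They were chosen by name: the survival genes Mcl1, Bcl2a1a, Bcl2a1b, Bcl2a1d, Bcl2l11 and Bcl2l1, and the receptor genes Csf3r, Csf2ra, Csf2rb and Csf2rb2. All 10 were found among the 55385 mouse gene identifiers of the count table, and all 10 were among the 11274 genes that passed a filter of at least 5 CPM (counts normalized to a common library total) on average over the libraries. RNA had been sequenced in bulk from neutrophils of squamous cell carcinomas (SCC), grown from grafted mouse SCC cells that were either the parental Sox2low control or Sox2Hi. Every host was a CatchupIVM-red mouse, in which the Tomato reporter sits in the Ly6g locus, so that neutrophils can be sorted by colour and Ly6g itself is a limited check. Tumours were naive, meaning untreated, or treated with anti-PDL1/CD40 agonist, which blocks a checkpoint ligand and stimulates antigen-presenting cells. The control tumours gave 3 naive and 2 treated libraries, and the Sox2Hi tumours likewise. The descriptions of the libraries also carry the names C57, in all of them, and GFP for the control and Sox2 for the Sox2Hi graft. The labels do not give the age, sex or number of animals behind a library, so p-values measure only the spread between these libraries.

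A neutrophil is short-lived, and its death is decided largely at the mitochondrion by proteins of the BCL2 family. MCL1, the A1 proteins encoded by the Bcl2a1 genes, and BCL-xL encoded by Bcl2l1 hold the pore-forming proteins BAX and BAK in check, while BIM, encoded by Bcl2l11, releases them. MCL1 turns over within hours and neutrophils depend on it more than on its relatives. Granulocyte CSF signals through the receptor encoded by Csf3r. Granulocyte-macrophage CSF (GM-CSF) signals through an alpha chain encoded by Csf2ra together with the common beta chain encoded by Csf2rb, and Csf2rb2 encodes a mouse-specific second beta chain used by interleukin-3. These receptors act through JAK kinases and STAT factors and prolong neutrophil survival.

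Total gene counts ran from 13815734 to 22986193 per library. Reads of the tdTomato reporter were present in all 10 libraries (9.77 to 27.7 CPM), while Ly6g, the locus that carries it, was at 1.74 to 17.8 scaled CPM. The 20 neutrophil marker genes held 1.48 to 2.32% of counts in control naive, 3.17 to 3.27% in control treated libraries, against 1.47 to 2.03% in Sox2Hi naive tumours and 1.96 to 2.30% in treated ones. Markers of macrophages and dendritic cells held 0.0912 to 0.133% in control naive and 0.0845 to 0.127% in control treated libraries. They held 0.135 to 0.191% in Sox2Hi naive and 0.0953 to 0.153% in Sox2Hi treated ones. The naive grafts thus did not overlap, though none of the 10 tested markers was called between them. Most other marker lists moved with treatment of control tumours. Fibroblast and endothelial markers held 0.0291 to 0.0814% in control naive and 0.0072 to 0.00903% in control treated libraries (5 of 6 tested called lower), keratinocyte markers 0.0607 to 0.190% and 0.0312 to 0.0670% (4 of 7 lower), and erythroid markers 0.0324 to 0.0787% and 0.00188 to 0.0113% (2 of 2 lower). T and NK cell markers held 0.00419 to 0.00697% and 0.00733 to 0.0250% (3 of 4 called higher), and B and plasma cell markers 0.00658 to 0.0122% and 0.00258 to 0.00881% (0 of 3 called), the last at 0.0165 to 0.0773% and 0.00199 to 0.0115% in Sox2Hi naive and treated libraries. In Sox2Hi tumours the calls with treatment were 3 of 6 lower for fibroblasts and endothelium, 1 of 7 lower for keratinocytes, 2 of 2 lower for erythroid cells, 2 of 4 higher for T and NK cells and 0 of 3 for B and plasma cells. For macrophages and dendritic cells 1 of 10 was called higher. For eosinophils, basophils and mast cells 2 of 6 were called lower, at 0.0154 to 0.0168% in naive and 0.00417 to 0.00819% in treated libraries. The part of these cells in the results was not tested. Olfactory and vomeronasal receptor genes, 1464 in number and taken as silent, carried a median of 2.51 and 2.78 counts per kb of exon in the control treated libraries and 4.48 to 8.85 in the others. The Y-linked gene Ddx3y had 4 to 8 counts in 1 library of each group and 1007 to 6618 in the other 6 libraries, and with this difference as a term in the fit the count of members called was the same in each comparison.

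The 3 Bcl2a1 genes are near-identical copies, and their start regions are shown as an example of that likeness. How far reads can be assigned to one copy is limited by the likeness of the exons, given after the windows. The windows run from 250 bases before to 50 bases after the start site in RefSeq (GRCm38.p6). Capitals mark the aligned bases that differ from the Bcl2a1a window (in the Bcl2a1a line, those that differ from either copy). Bases without an aligned partner are not marked, among them a short stretch inside the Bcl2a1a window that the Bcl2a1d window lacks. They lie at chr9:88956670-88956969 on the plus strand (Bcl2a1a), chr9:89199023-89199322 on the plus strand (Bcl2a1b) and chr9:88731801-88732100 on the minus strand (Bcl2a1d).
Bcl2a1a: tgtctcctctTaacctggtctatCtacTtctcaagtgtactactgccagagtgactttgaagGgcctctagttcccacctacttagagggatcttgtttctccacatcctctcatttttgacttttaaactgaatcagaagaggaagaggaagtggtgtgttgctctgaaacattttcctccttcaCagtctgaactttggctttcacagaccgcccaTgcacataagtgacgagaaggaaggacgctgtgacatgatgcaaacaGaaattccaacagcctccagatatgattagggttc
Bcl2a1b: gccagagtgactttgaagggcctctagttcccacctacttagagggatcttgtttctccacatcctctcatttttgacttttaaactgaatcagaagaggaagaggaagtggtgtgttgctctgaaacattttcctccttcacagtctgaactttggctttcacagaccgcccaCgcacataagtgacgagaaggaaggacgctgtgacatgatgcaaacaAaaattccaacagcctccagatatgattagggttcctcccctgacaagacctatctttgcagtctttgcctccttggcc
Bcl2a1d: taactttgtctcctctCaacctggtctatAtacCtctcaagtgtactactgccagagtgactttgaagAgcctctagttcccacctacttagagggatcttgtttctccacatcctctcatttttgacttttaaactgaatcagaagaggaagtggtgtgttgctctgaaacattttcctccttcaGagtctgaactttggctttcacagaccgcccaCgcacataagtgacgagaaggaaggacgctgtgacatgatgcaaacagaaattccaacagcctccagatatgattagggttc
Over the aligned bases, Bcl2a1a matched Bcl2a1b at 254 of 256 positions and Bcl2a1d at 288 of 294. In the annotated exons, 79.6% of the 31-base stretches of Bcl2a1a, 88.8% of those of Bcl2a1b and 89.1% of those of Bcl2a1d also occur in another gene, most of them in another copy. The counts of a single copy are therefore uncertain, and the sum of the 3 is given beside them. The exons of Bcl2a1b also overlap the same-strand gene Gm29094 over 401 bases. Of the receptor genes, Csf2rb and Csf2rb2 share 1369 such stretches, and Csf3r shares 728 with AC105061.2.

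Start regions were found in RefSeq for 9 of the 10 members by symbol, and 2 of them are printed because Mcl1 is the highest single-copy survival gene here and Bcl2l1 is the gene on which the comparisons of naive tumours turn. Capitals mark each match, on either strand, to the NF-kB-like motif GGNNNTTCC. NF-kB is a family of factors that CD40 activates in antigen-presenting cells. The windows are chr3:95658471-95658770 on the plus strand (Mcl1) and chr2:152830668-152830967 on the minus strand (the second of 3 Bcl2l1 start sites in RefSeq). Of the 3 Bcl2l1 windows this is the only 1 with a match, and its start site lies 1011 bases from the gene start in GENCODE.
Mcl1: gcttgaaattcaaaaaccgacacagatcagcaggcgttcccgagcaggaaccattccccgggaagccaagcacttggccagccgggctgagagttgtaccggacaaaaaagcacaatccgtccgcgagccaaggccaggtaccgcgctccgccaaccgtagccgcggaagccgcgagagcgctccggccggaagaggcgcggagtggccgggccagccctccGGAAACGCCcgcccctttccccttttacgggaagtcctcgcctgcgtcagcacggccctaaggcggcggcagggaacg
Bcl2l1: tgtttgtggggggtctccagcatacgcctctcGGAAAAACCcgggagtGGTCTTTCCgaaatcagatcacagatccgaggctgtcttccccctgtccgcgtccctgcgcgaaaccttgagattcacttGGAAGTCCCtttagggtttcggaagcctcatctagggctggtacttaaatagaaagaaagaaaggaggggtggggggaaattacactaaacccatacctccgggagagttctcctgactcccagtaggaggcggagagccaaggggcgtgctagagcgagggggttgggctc
The Mcl1 window held 1 match, 28 bases before the start, and this Bcl2l1 window held 3, at 218, 202 and 122 bases before it. The windows of Csf3r and Csf2rb2 held 1 match each, and those of the Bcl2a1 copies, Bcl2l11, Csf2ra and the other Bcl2l1 starts held none. Of all 32851 windows, 18.5% held a match. The STAT-like motif TTCNNNGAA was found in the Csf2rb2 window alone, 15 bases before the start, against 8.3% of all windows.

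Per kb of exon, where genes can be compared, the Bcl2a1 copies and Mcl1 stood highest and Bcl2l1 and Csf2rb2 lowest. The median level over the 10 libraries, in scaled CPM per kb, was 543 for Bcl2a1b, 276 for Bcl2a1a, 263 for Mcl1 and 210 for Bcl2a1d. Among the receptors it was 101 for Csf2rb, 40.4 for Csf3r, 23.0 for Csf2ra and 5.58 for Csf2rb2. It was 10.8 for Bcl2l11 and 6.20 for Bcl2l1. With all 10 sorted by their median, each gene's range over the libraries overlapped that of its neighbour. Of the summed Bcl2a1 counts Bcl2a1a took 24.3 to 27.6% in every library, with overlapping groups. The share of Bcl2a1d was 21.2 to 22.3% in control naive and 15.3 to 17.8% in control treated libraries, and 21.5 to 22.9% in Sox2Hi naive and 17.2 to 18.5% in Sox2Hi treated ones. The share of Bcl2a1b was 51.5 to 52.2% and 57.1% in both treated libraries of the control graft, and 50.3 to 53.6% and 56.7 to 57.2% in the Sox2Hi graft. In each graft the treated libraries thus lay below the naive ones in the share of Bcl2a1d and above them in that of Bcl2a1b, as far as reads can be assigned to one copy. Csf2rb took 96.0 to 96.9% of the summed beta chain counts, with overlapping groups in each of the 4 comparisons.

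**Figure D1:**
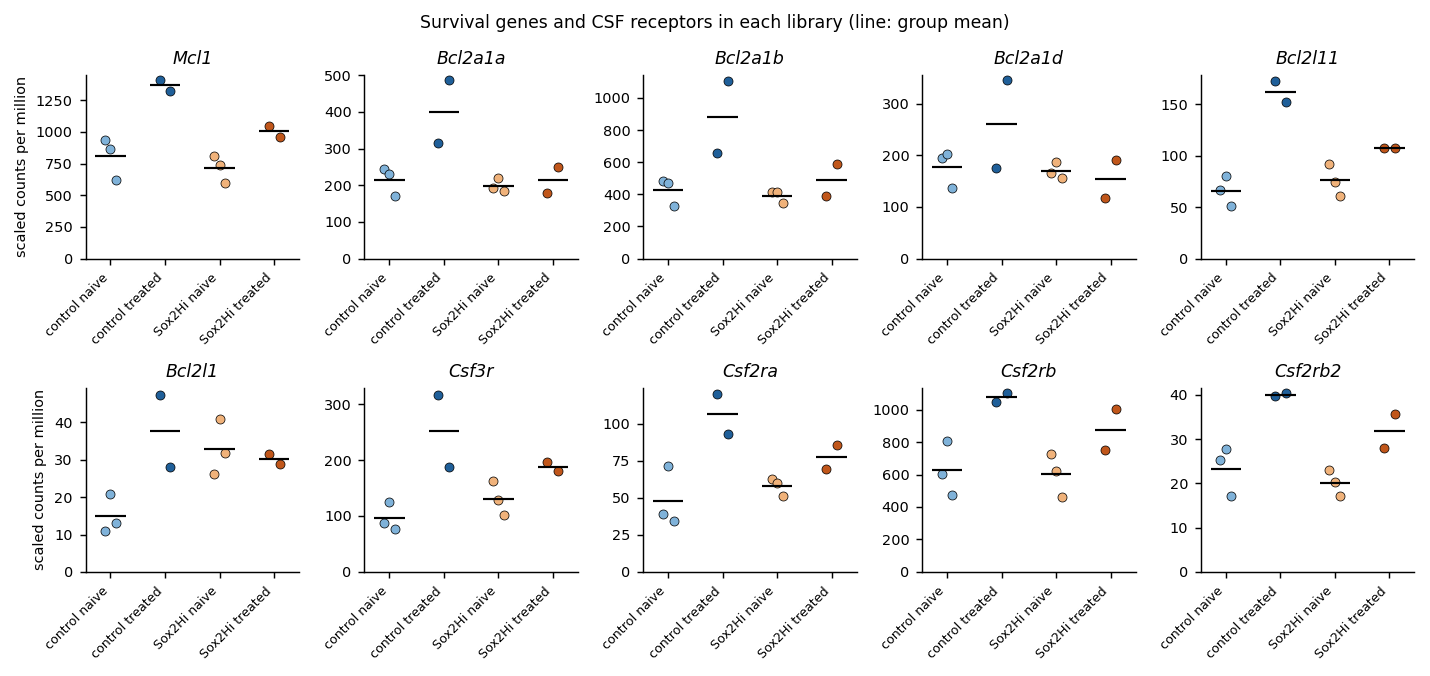
Level of each member in each of the 10 libraries, in scaled CPM (y axis from 0), by graft and treatment; points are libraries and lines are group means. The control treated libraries are highest for most genes, and Bcl2l1 is separated between the naive grafts, at 10.9 to 20.9 in control and 26.3 to 40.8 in Sox2Hi.

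Mcl1 (ENSMUSG00000038612, chromosome 3, 95658788 to 95663176, GRCm38), the labile survival protein of neutrophils, was at 934, 863 and 619 scaled CPM in control naive replicates 1 to 3 and at 1411 and 1320 in control treated replicates 1 and 2. It was at 806, 739 and 597 in Sox2Hi naive and at 1049 and 962 in Sox2Hi treated libraries. In each graft the treated libraries lay above all naive ones, and the Sox2Hi treated libraries lay below both control treated ones. The rise with treatment was 0.76 on the log2 scale in control tumours (SE 0.20, edgeR adjusted p 0.0078) and passed the test, but was 0.26 and not called with libraries scaled by their totals only. In Sox2Hi tumours the fitted difference was 0.49 (SE 0.20, edgeR adjusted p 0.095), and the difference between the 2 responses was -0.27 (SE 0.29, edgeR adjusted p 0.57). It ran from -0.53 (without control treated replicate 2) to -0.11 (without control naive replicate 3) when 1 library was left out, and was called in none of these fits.

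The summed Bcl2a1 copies, which encode the A1 proteins, were at 919, 908 and 632 scaled CPM in control naive, 1146 and 1936 in control treated, 772, 819 and 688 in Sox2Hi naive, and at 684 and 1026 in Sox2Hi treated libraries. The control treated libraries lay above the control naive ones, with replicate 2 far above replicate 1, and the Sox2Hi groups overlapped. Treatment raised the sum in control tumours by 0.91 (SE 0.26, edgeR adjusted p 0.012), and without control treated replicate 2 this was 0.63 and no longer called. In Sox2Hi tumours the difference was 0.17 (SE 0.26, edgeR adjusted p 0.65). Of the single copies, Bcl2a1a rose by 0.89 and Bcl2a1b by 1.05 with treatment of control tumours (edgeR adjusted p 0.0066 and 0.0059), while Bcl2a1d had 0.55 (edgeR adjusted p 0.13). Leaving out 1 library, the Bcl2a1d value ran from 0.13 to 1.07, and it was called without control treated replicate 1 (1.07) and with DESeq2 (0.69). The call on Bcl2a1b was lost without control treated replicate 2 (0.76, edgeR adjusted p 0.051).

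Between the treated grafts the summed copies were lower in Sox2Hi by 0.85 on the log2 scale, which missed the threshold (SE 0.29, edgeR adjusted p 0.060) and was called without control treated replicate 1 (-1.28) or Sox2Hi treated replicate 2 (-1.27). Bcl2a1a alone of the copies passed (-0.90, SE 0.25, edgeR adjusted p 0.031). Bcl2a1a was at 316 and 486 scaled CPM in control treated and 178 and 250 in Sox2Hi treated libraries, so the groups did not overlap. The call was lost without control treated replicate 2 (-0.69), without Sox2Hi treated replicate 1 (-0.68), and after reads expected from silent genes were taken off (-0.89, edgeR adjusted p 0.061). As the copies share most of their sequence, this value cannot be assigned to Bcl2a1a alone.

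Bcl2l11 (ENSMUSG00000027381, chromosome 2, 128126038 to 128162547), which encodes the death-promoting BIM, was at 67.2, 80.3 and 51.0 scaled CPM in control naive and at 173 and 152 in control treated libraries. It was at 92.5, 74.8 and 61.0 in Sox2Hi naive and at 108 in both Sox2Hi treated libraries. Treated libraries lay above naive ones in each graft. The rise in control tumours was 1.30 (SE 0.21, edgeR adjusted p 0.00075), the smallest adjusted p among the members, and the difference in Sox2Hi tumours was 0.51 (SE 0.21, edgeR adjusted p 0.11). The survival gene Mcl1 and the death gene Bcl2l11 were thus both higher after treatment of control tumours.

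Bcl2l1 (ENSMUSG00000007659, chromosome 2, 152780668 to 152831728, minus strand), which encodes BCL-xL, was the only member called between the naive grafts. It was at 10.9, 20.9 and 13.2 scaled CPM in control naive and 26.3, 40.8 and 31.8 in Sox2Hi naive libraries, so the groups did not overlap, as in 10.7% of tested genes in this direction and 21.8% in the other. It was higher in Sox2Hi by 1.14 on the log2 scale (SE 0.27, edgeR adjusted p 0.022), against 2.10% of all tested genes called higher. The call was lost without control naive replicate 1 (0.95), Sox2Hi naive replicate 2 (0.95) or Sox2Hi naive replicate 3 (1.16). Reads expected from silent genes made up 12.4 to 18.1% of Bcl2l1 counts in control naive and 2.77 to 4.71% in Sox2Hi naive libraries, and with them taken off the difference was 1.25 (edgeR adjusted p 0.041). Markers of macrophages and dendritic cells (0.0912 to 0.133% and 0.135 to 0.191%) were also higher in Sox2Hi naive libraries without overlap. So were those of B and plasma cells (0.00658 to 0.0122% and 0.0165 to 0.0773%). The part of these cells in the Bcl2l1 difference was not tested.

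After treatment Bcl2l1 was at 47.4 and 28.1 scaled CPM in control and 31.4 and 28.8 in Sox2Hi libraries, which overlap. Treatment raised it by 1.33 in control tumours (SE 0.30, edgeR adjusted p 0.0034), while the Sox2Hi value was -0.13 (SE 0.30, edgeR adjusted p 0.77). The difference between the 2 responses was -1.46 (SE 0.43, edgeR adjusted p 0.033). The Sox2Hi naive libraries, at 26.3 to 40.8, thus lay in or just below the range of the 4 treated ones, 28.1 to 47.4. This interaction was called in 3 of the 10 fits that each left out 1 library. It missed the threshold without control naive replicate 1 (-1.27) or 3 (-1.38), control treated replicate 1 (-1.21), Sox2Hi naive replicate 2 (-1.28) or 3 (-1.48), or Sox2Hi treated replicate 1 (-1.52) or 2 (-1.59), with library totals as the only scaling (-1.29), or with the silent-gene reads taken off (-1.62, edgeR adjusted p 0.059).

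Csf3r (ENSMUSG00000028859, chromosome 4, 126024550 to 126044440), the receptor for granulocyte CSF and itself 1 of the 20 neutrophil markers, had the largest fitted rise of the members with treatment of control tumours. It was at 86.8, 125 and 76.9 scaled CPM in control naive and at 317 and 188 in control treated libraries, and at 163, 128 and 102 in Sox2Hi naive and at 196 and 180 in Sox2Hi treated libraries. Treated libraries lay above naive ones in each graft, and control treated replicate 1 was the highest of the 10. The rise in control tumours was 1.39 (SE 0.27, edgeR adjusted p 0.0017), and the Sox2Hi value was 0.52 (SE 0.27, edgeR adjusted p 0.17). Between the naive grafts the Sox2Hi value was 0.45 higher, which did not pass (SE 0.25, edgeR adjusted p 0.29) and ran from 0.26 (without Sox2Hi naive replicate 1) to 0.76 (without control naive replicate 2) when 1 library was left out, with no call in any of these fits.

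The GM-CSF receptor chains moved in the same direction. Csf2ra (ENSMUSG00000059326, chromosome 19, 61223957 to 61228429, minus strand), the alpha chain, was at 39.1, 71.3 and 34.2 scaled CPM in control naive, 120 and 93.3 in control treated, 62.7, 60.0 and 51.3 in Sox2Hi naive and at 69.5 and 86.0 in Sox2Hi treated libraries. Control naive replicate 2 stood above its 2 companions, but below both treated libraries. The rise in control tumours was 1.15 (SE 0.28, edgeR adjusted p 0.0050).

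Csf2rb (ENSMUSG00000071713, chromosome 15, 78325752 to 78353847), the common beta chain, was the most abundant receptor gene. It was at 605, 809 and 475 scaled CPM in control naive and at 1048 and 1102 in control treated libraries, and at 724, 623 and 463 in Sox2Hi naive and at 748 and 1001 in Sox2Hi treated libraries. In each graft all treated libraries lay above all naive ones. The rise in control tumours was 0.77 (SE 0.25, edgeR adjusted p 0.021), and it lost its call without control naive replicate 1 (0.74) or 3 (0.60), or control treated replicate 2 (0.88), and with silent-gene reads taken off (0.71). Csf2rb is also made by eosinophils, mast cells and macrophages. The markers of eosinophils, basophils and mast cells fell from 0.00965 to 0.0286% of counts in control naive to 0.0022 to 0.00425% in control treated libraries, with 4 of 6 tested markers called lower and none higher, and macrophage and dendritic cell markers were at 0.0912 to 0.133% and 0.0845 to 0.127%, with 2 of 10 called higher, and none lower. Csf1r, which encodes the receptor for macrophage CSF, was among the 2, at 12.6 to 18.4 scaled CPM in control naive and 28.3 to 33.9 in control treated libraries. Their part in the result was not tested.

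Csf2rb2 (ENSMUSG00000071714, chromosome 15, 78282507 to 78305721, minus strand), the interleukin-3 beta chain, was at 25.2, 27.7 and 17.1 scaled CPM in control naive, 39.7 and 40.4 in control treated, 23.0, 20.2 and 17.2 in Sox2Hi naive and at 27.9 and 35.7 in Sox2Hi treated libraries. Its rise in control tumours was 0.78 (SE 0.21, edgeR adjusted p 0.0098). In Sox2Hi tumours its value of 0.65 (SE 0.21, edgeR adjusted p 0.051) came nearest of the members to the threshold. Reads shared with Csf2rb could carry part of its counts, since 30.1% of its 31-base stretches occur in another gene.

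Treatment of control tumours thus raised 9 of the 10 members, all but Bcl2a1d, where 57.3% of tested genes were called and 24.1% were called higher. The median of the 10 was 0.97 on the log2 scale, against -0.18 over all 11274 tested genes. Changes depended on the level of a gene, so genes of like level are the closer background. Among the 1520 tested genes at 100 scaled CPM or more on average, the median was 0.54 and 54.7% were called higher, and the 6 members at that level had a median of 0.83. Among the 3832 tested genes at 20 to 100 scaled CPM the median was 0.08 and 31.8% were called higher, and the other 4 members (Bcl2l11, Bcl2l1, Csf2ra and Csf2rb2) had a median of 1.22. In 9 members the treated libraries lay above all naive ones, as in 29.6% of tested genes, while 38.8% of tested genes lay below without overlap. In bulk RNA, fewer cells of a type and less RNA per cell cannot be told apart, and 17 of the 18 tested neutrophil markers were called higher in the same comparison.

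In Sox2Hi tumours none of the 10 members was called with treatment by edgeR, where 21.6% of tested genes were called. At an unadjusted p under 0.05, 3 members were higher (Mcl1, Bcl2l11 and Csf2rb2), as were 25.3% of tested genes. DESeq2 called 0 members and 27.1% of tested genes, and limma-voom 1, Csf2rb2, and 33.4%. The median of the 10 was 0.46 against 0.09 over all tested genes. In 6 members (Mcl1, Bcl2l11 and the 4 receptor genes) the treated libraries lay above all naive ones, as in 37.0% of tested genes, and in none below, where 25.4% of tested genes lay. Of the 18 tested neutrophil markers, 11 were called higher here.

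Between naive grafts Bcl2l1 was the only member called, where 14.0% of tested genes were called. Under the scaling used here, 4 members had values above 0 and 6 below, with a median of -0.064 against -0.047 over all tested genes. The values of Mcl1, the Bcl2a1 copies, Csf2rb and Csf2rb2 were all below 0 but no larger than 0.21 in size, and each turned positive when factors were taken from all genes.

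Between treated grafts 1 member was called, Bcl2a1a, where 20.9% of tested genes were called and 5.87% were called lower. All 10 members had fitted values below 0, from -0.90 to -0.30, with a median of -0.45 against 0.04 over all tested genes. Of the 1520 tested genes at 100 scaled CPM or more, 85.6% had values below 0, with a median of -0.38 and 20.1% called lower, and the 6 members at that level had a median of -0.60. Of the 3832 at 20 to 100 scaled CPM, 60.9% had values below 0, with a median of -0.10 and 6.45% called lower, against a median of -0.40 for the other 4 members. In 7 members the Sox2Hi libraries lay below both control ones, as in 26.3% of tested genes, with 34.3% lying above. The exceptions were Bcl2a1d, Bcl2l1 and Csf3r. Of the neutrophil markers, 6 of 18 were called lower in Sox2Hi and none higher. Called higher were 2 of 6 markers of eosinophils, basophils and mast cells, 2 of 7 of keratinocytes and 1 of 6 of fibroblasts and endothelium. Over all tested genes 15.0% were called higher. No marker of the other lists was called, and the part of these cells was not tested.

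The treatment responses were smaller in Sox2Hi for all 10 members, by -0.12 (Csf2rb2) to -1.46 (Bcl2l1), and the difference passed the test in Bcl2l1 alone, where 19.8% of tested genes were called and 2.84% called lower. The median difference of the members was -0.73, against 0.024 over all tested genes, -0.37 over those at 100 scaled CPM or more and -0.16 over those at 20 to 100. A difference below 0 was found in 83.6% of the genes at 100 scaled CPM or more and in 64.4% of those at 20 to 100.

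**Figure D2:**
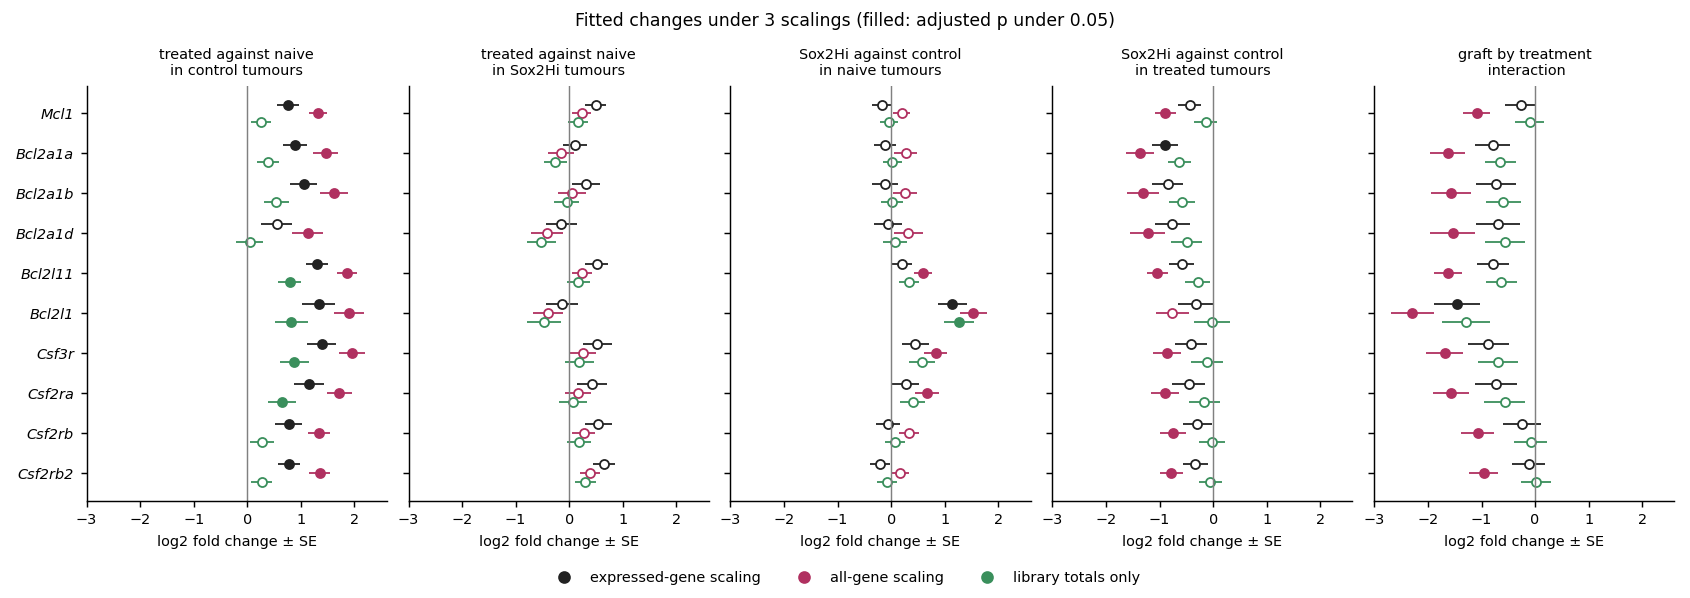
Fitted log2 fold change (x axis) with its standard error for each member (y axis) in the 4 comparisons and the interaction, under 3 ways of scaling the libraries; filled points passed an adjusted p of 0.05. In control tumours 9 members pass with expressed-gene scaling, 10 with factors from all genes (the same genes tested) and 4 with library totals only, and Bcl2l1 lies to the right of 0 between the naive grafts under each.

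These counts depended on how libraries were made comparable. The factors used above came from the 11274 expressed genes and ranged from 0.821 to 1.18, except in the control treated libraries at 0.731 and 0.730. With factors taken instead from all 29648 genes with sufficient counts, and the same 11274 genes tested, the median of the tested genes moved from -0.18 to 0.36 for treatment of control tumours, and 55.0% were called (41.9% higher, 13.1% lower), among them all 10 members, each higher. With library totals only, the median was -0.69, 66.5% were called (11.2% higher, 55.3% lower), and 4 members were called higher, Bcl2l11 (0.79), Bcl2l1 (0.82), Csf3r (0.88) and Csf2ra (0.64). Mcl1 (0.26), Bcl2a1a (0.39), Bcl2a1b (0.54), Csf2rb (0.27) and Csf2rb2 (0.27) lost their calls there. The main split was 24.1% higher and 33.1% lower. Between treated grafts, the median of the tested genes moved from 0.04 to -0.41 with factors from all genes, and 9 members, all but Bcl2l1, were called lower (35.7% of genes called, 29.2% lower and 6.49% higher). The members called were 0 with totals only (26.2% called, 1.70% lower and 24.5% higher), against 5.87% lower and 15.0% higher in the fit described above.

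For the interaction the members called were 10 with factors from all genes, where the median of the tested genes was -0.79 and 55.3% were called (45.4% lower, 9.85% higher), and 0 with library totals only, where 19.8% were called (1.21% lower, 18.6% higher). The main split was 2.84% lower and 16.9% higher. In naive tumours Bcl2l1 was called under each of the 3 scalings, at 1.14, 1.53 and 1.27. With factors from all genes Bcl2l11 (0.59), Csf3r (0.83) and Csf2ra (0.67) were called higher too, where the median was 0.32 over the tested genes and 0.32 over the members. There the split of all genes was 2.10% higher and 11.9% lower in the fit described above, 17.1% and 4.28% (21.4% in all) with factors from all genes, and 2.75% and 6.26% (9.01% in all) with totals only. In treated Sox2Hi tumours no member was called under any of the 3, and the split was 15.0% higher and 6.57% lower in the fit described above, 7.36% and 12.0% (19.4% in all) with factors from all genes, and 5.94% and 21.0% (26.9% in all) with totals only. When the tests too were run on the 29648 genes, the members called were 10 for treatment of control tumours (34.0% of genes called), 0 for treatment of Sox2Hi tumours (3.61%), 1 between naive grafts (1.87%), 8 between treated grafts (13.7%) and 10 for the interaction (27.5%).

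Ratios of counts inside a library do not depend on these factors. The ratio of Bcl2l11 to Mcl1, the death gene to the survival gene, was -3.80, -3.43 and -3.60 on the log2 scale in control naive, -3.03 and -3.12 in control treated, -3.12, -3.30 and -3.29 in Sox2Hi naive and at -3.28 and -3.15 in Sox2Hi treated libraries. The control naive libraries were the 3 lowest of the 10. The mean was 0.54 higher with treatment in control tumours (exact two-sided permutation p 0.2, the smallest that 3 against 2 libraries allow) and 0.37 higher in Sox2Hi than in control naive tumours (exact p 0.1, the smallest for 3 against 3). In Sox2Hi tumours it differed by 0.022 with treatment, within the spread of the libraries. Neither p could pass 0.05, and these are among 28 such comparisons of 7 ratios.

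The ratio of Bcl2l1 to Mcl1 was -6.42, -5.36 and -5.55 in control naive and -4.94, -4.18 and -4.23 in Sox2Hi naive libraries, a difference of 1.33 with no overlap (exact p 0.1, the smallest possible). It was -4.90 and -5.56 in control treated libraries and -5.06 in both Sox2Hi treated ones. The ratio of Csf3r to Csf2rb was -2.80, -2.69 and -2.63 in control naive and -2.15, -2.28 and -2.18 in Sox2Hi naive libraries, which is 0.50 higher with no overlap (exact p 0.1). Within the treated groups it ranged widely, from -1.73 to -2.55 in control and -1.93 to -2.47 in Sox2Hi libraries. The ratio of Csf2rb to Mcl1 stayed between -0.63 and 0.057 in all 10 libraries, and its groups overlapped in each of the 4 comparisons.

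**Figure D3:**
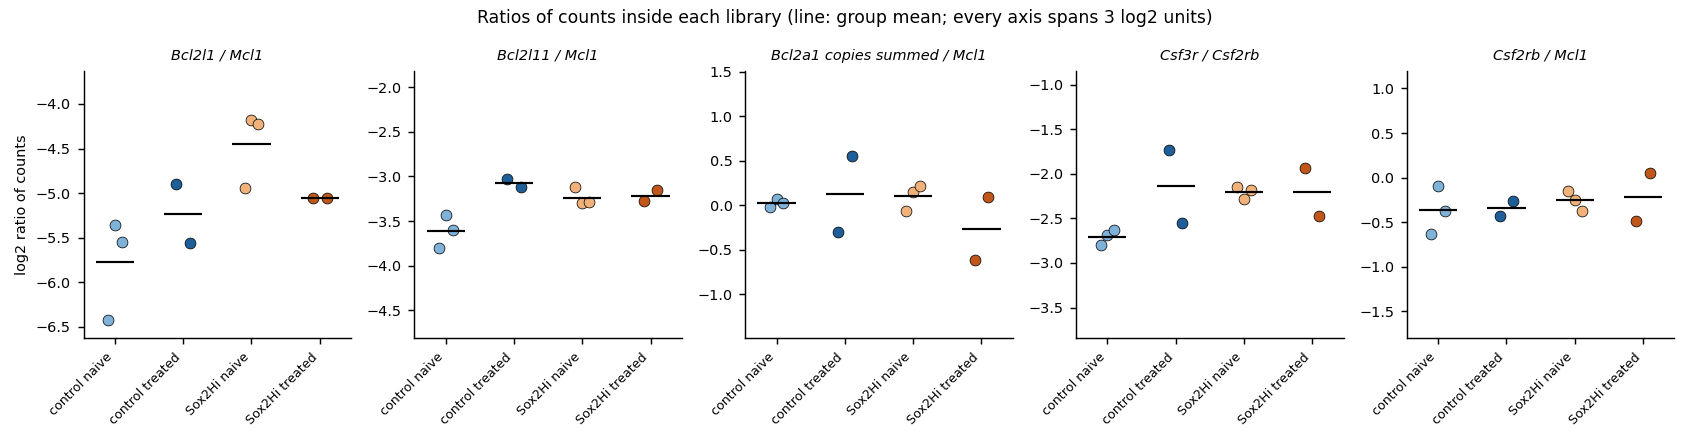
Log2 ratio of counts of pairs of members inside each library (y axis, 3 log2 units tall in each panel) by group; points are libraries and lines group means. Bcl2l1, Bcl2l11 and Csf3r relative to their partners are lower in the 3 control naive libraries than in the 3 Sox2Hi naive ones, while the summed Bcl2a1 copies and Csf2rb relative to Mcl1 overlap.

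Relative to the neutrophil markers, no member was higher in the control treated libraries without overlap, and 4 were lower (Mcl1, Bcl2a1d, Csf2rb and Csf2rb2). By the same ratio 3.51% of tested genes were higher and 84.2% lower without overlap. With treatment of Sox2Hi tumours 4 members were lower without overlap, Bcl2a1a (-0.54), Bcl2a1d (-0.81), Bcl2l11 (-0.10) and Bcl2l1 (-0.74), each at the smallest exact p of 0.2, as in 60.1% of tested genes, and the others overlapped. The log2 ratio of Mcl1 to the summed markers other than Csf3r was -4.49 ± 0.19 (SD, n = 3) in control naive and -5.01 ± 0.042 (SD, n = 2) in control treated libraries, a difference of -0.51 without overlap. Bcl2a1d differed by -0.81 and Csf2rb and Csf2rb2 each by -0.49, also without overlap, while Bcl2l11 (0.026), Bcl2l1 (0.040) and Csf3r (0.077) overlapped (exact two-sided permutation p 0.2 to 1 over the 10 members). Between treated grafts all 10 ratios were higher in Sox2Hi, by 0.0069 to 0.62, where the fitted values had all been lower. This was without overlap in 7 members, as in 88.8% of tested genes. The 3 Bcl2a1 copies overlapped and turned negative without control treated replicate 1 (-0.33 to -0.32) or Sox2Hi treated replicate 2 (-0.22 to -0.15). In naive tumours the ratio was higher in Sox2Hi without overlap for Bcl2l1 (1.40), Csf3r (0.68), Csf2ra (0.57), Bcl2l11 (0.44) and Csf2rb (0.18), each at the smallest exact p of 0.1, as in 7.44% of tested genes. The sum is led by Il1r2, S100a8, S100a9 and Trem1, and without those 4 the control treatment values of Bcl2l11, Bcl2l1 and Csf3r turned to -0.59, -0.58 and -0.54. S100a8 alone ran from 1218 to 1910 scaled CPM in control naive and from 7539 to 10217 in control treated libraries.

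**Figure D4:**
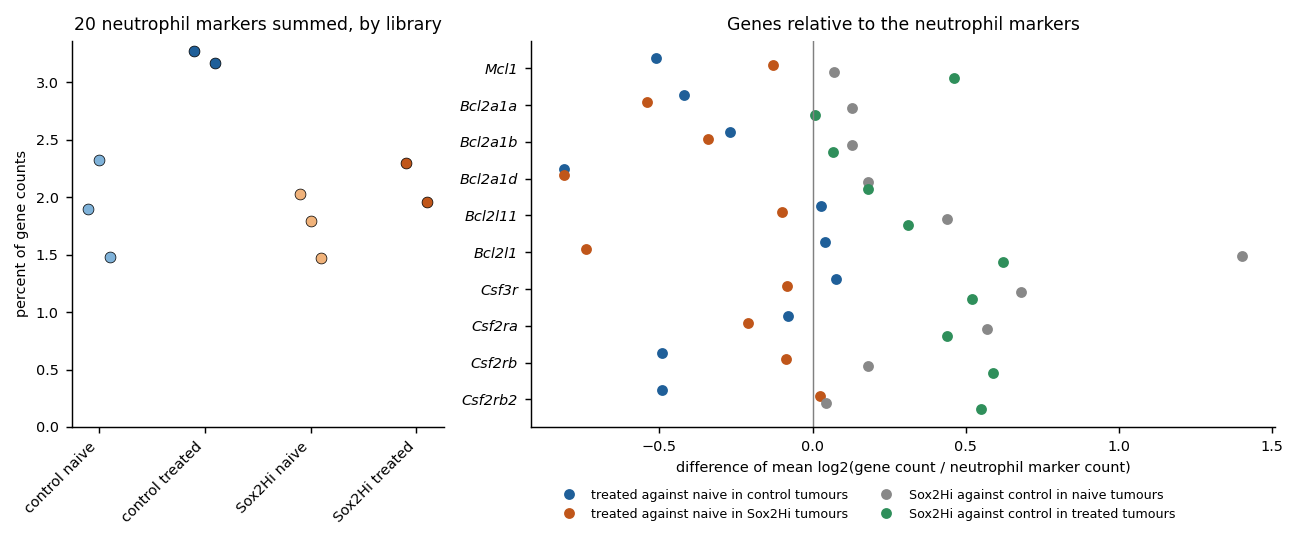
Left, percent of gene counts in the 20 neutrophil markers in each library; right, difference between group means of the log2 ratio of each member to the neutrophil markers (Csf3r left out of the sum). The control treated libraries are highest at 3.17 and 3.27%, and on the right Bcl2l1 between the naive grafts stands farthest from 0 at 1.40.

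Other BCL2 family genes were mostly low: 6 of the 14 listed passed the filter. Treatment of control tumours raised Pmaip1, which encodes the BH3-only protein NOXA that targets MCL1, and Bax, which encodes the pore-forming effector. It lowered Bcl2, the founding survival gene of the family, and Bok, a BAX relative. These 2 of 6 higher and 2 of 6 lower stand against 24.1% and 33.1% of all tested genes, and in Sox2Hi tumours 1 of 6 was called higher against 15.0%. Pmaip1 and Bax averaged 100 scaled CPM or more, where 54.7% were called higher in control and 24.1% in Sox2Hi tumours. Bcl2 and Bok averaged 5 to 20, where 44.8% were called lower in control tumours. Pmaip1 was at 354, 380 and 285 scaled CPM in control naive and at 1054 and 882 in control treated libraries, a rise of 1.51 (SE 0.18, edgeR adjusted p 0.00020). It rose in Sox2Hi tumours too, from 401, 379 and 306 to 711 and 595 (0.85, SE 0.18, edgeR adjusted p 0.012). That call was lost without Sox2Hi naive replicate 3 (0.74) or Sox2Hi treated replicate 1 (0.72) or 2 (0.91). It was also lost with library totals only, and with factors from all genes where all genes were tested too. The rise in control tumours kept its call under all 17 alternatives run.

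Bax was at 91.6, 86.6 and 96.6 scaled CPM in control naive and at 140 and 152 in control treated libraries (0.67, edgeR adjusted p 0.0019; 0.16 and not called with library totals only), against 105, 107 and 111 in Sox2Hi naive and at 104 and 120 in Sox2Hi treated ones (0.056, edgeR adjusted p 0.78). The difference between these responses passed the test (-0.61, SE 0.19, edgeR adjusted p 0.044), but in 11 of 21 alternatives only, and not without control naive replicate 1 (-0.61), any 1 of the 3 Sox2Hi naive libraries (-0.63, -0.62 and -0.59) or Sox2Hi treated replicate 1 (-0.51). Bcl2 fell by 0.48 on the log2 scale in control tumours, from a mean of 12.3 to 8.75 scaled CPM (edgeR adjusted p 0.043), a call kept in 2 of 17 alternatives and lost without any 1 of the 5 libraries (-0.50 to -0.27). With factors from all genes the Bcl2 value was 0.067. Bok fell by 1.39 (edgeR adjusted p 0.032), and was not called without control naive replicate 1 (-1.36) or 3 (-1.10) or control treated replicate 2 (-0.54), nor with factors from all genes (-0.89). Bid, which encodes a BH3-only protein cut by caspase 8, had 0.46 (edgeR adjusted p 0.070), and 0.82 and called without control treated replicate 2. Bak1, Bmf and Bbc3 averaged 3.03, 1.30 and 1.38 scaled CPM and were under the filter.

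Of 20 genes of CSF signalling, 14 passed the filter, and treatment of control tumours raised 9 and lowered 1, Il5ra, with a median of 0.87 over the 14. In the same comparison 24.1% of all tested genes were called higher and 33.1% lower. The share called higher was 54.7% at 100 scaled CPM or more, the level of Jak1, Jak2, Lyn and Stat3. It was 31.8% at 20 to 100, the level of Csf1, Csf1r, Ptpn6 and Socs3, and 11.3% at 5 to 20, that of Cish. The Il5ra call (-0.82) was kept in 8 of 17 alternatives and lost without control naive replicate 2 (-0.70) or control treated replicate 1 (-0.53) or 2 (-0.89). Those raised were Cish, Csf1, Csf1r, Jak1, Jak2, Lyn, Ptpn6, Socs3 and Stat3. Jak2, the kinase bound to the beta chain, rose by 0.93 (SE 0.19, edgeR adjusted p 0.0023), and Stat3, the factor downstream of the granulocyte CSF receptor, by 1.02 (SE 0.21, edgeR adjusted p 0.0020), and both calls held under all 17 alternatives, with values of 0.43 and 0.51 with library totals only. With totals only Cish (0.44), Csf1r (0.46), Jak1 (0.31) and Socs3 (0.13) were not called. Stat5a, the factor downstream of GM-CSF, was at 5.31 scaled CPM in control treated and 7.05 in control naive libraries (-0.40, edgeR adjusted p 0.18; -0.91 and called with library totals only, 0.16 and not called with factors from all genes). The feedback inhibitors of these pathways, Socs3 and Cish, rose by 0.63 and 0.95 (edgeR adjusted p 0.024 and 0.0094). The call on Socs3 was lost without control naive replicate 3 (0.57) or control treated replicate 1 (0.37).

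In Sox2Hi tumours 4 of the 14 rose with treatment (Cish, Csf1r, Lyn and Pim1) and none fell, where 15.0% of all tested genes were called higher. That share was 24.1% at 100 scaled CPM or more, the level of Lyn and Pim1. It was 16.9% at 20 to 100 (Csf1r) and 11.5% at 5 to 20 (Cish). All 4 lost their calls with library totals only, and with factors from all genes where all genes were tested too. The call on Cish (0.79) was kept in 3 of 17 alternatives and lost without any 1 of the 5 libraries (0.49 to 1.00). Csf1r (0.84) and Lyn (0.89) lost theirs without Sox2Hi naive replicate 3 (0.76 and 0.79) or Sox2Hi treated replicate 2 (0.48 and 0.74). Pim1, a survival kinase induced by STAT signalling, was at 1705, 1234 and 1083 scaled CPM in Sox2Hi naive and at 2203 and 2238 in Sox2Hi treated libraries (0.73, SE 0.22, edgeR adjusted p 0.039). This call was kept in 4 of 17 alternatives and was lost without Sox2Hi naive replicate 2 (0.67) or 3 (0.60) or Sox2Hi treated replicate 1 (0.74) or 2 (0.66). In control tumours it had 0.45 (edgeR adjusted p 0.10; 0.61 and called without control naive replicate 2), and the difference between the responses was 0.28 (SE 0.31, edgeR adjusted p 0.59). Lyn was lower in Sox2Hi than in control treated tumours (-0.76, SE 0.23, edgeR adjusted p 0.039), and not called without any 1 of the 4 treated libraries (-1.01 to -0.67). The ligands were low in these cells: Csf3 averaged 13.6 scaled CPM and Csf2 2.69, and the interleukin-3 alpha chain Il3ra 1.89. Csf1, the macrophage CSF gene, rose in control tumours from a mean of 36.0 to 76.0 (1.08, SE 0.22, edgeR adjusted p 0.0021).

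Of 12 caspase genes and their regulators, 11 passed the filter. Treatment of control tumours raised 7 (Apaf1, Birc2, Birc3, Casp8, Cflar, Cycs and Fas) and lowered Birc5, and in Sox2Hi tumours 6 rose (the first 5 of these and Fas) and Birc5 fell. Over all tested genes 24.1% and 15.0% were called higher in these 2 comparisons. Birc3, Cflar, Cycs and Fas averaged 100 scaled CPM or more, where 54.7% and 24.1% of genes were called higher. Birc2 and Casp8 averaged 20 to 100, where the shares were 31.8% and 16.9%. Apaf1 averaged 5 to 20, where they were 11.3% and 11.5%. In Sox2Hi tumours the call on Birc2 (0.81) was kept in 8 of 17 alternatives and in 1 of the 5 that leave out a library (0.58 to 1.04), and without Sox2Hi treated replicate 2 Apaf1 (0.96), Casp8 (0.62) and Birc5 (-1.05) were not called. Birc2, Birc3, Casp8 and Cflar lost their Sox2Hi calls with library totals only, and with factors from all genes where all genes were tested too. Apaf1, Fas and Birc5 kept theirs in both. In control tumours Cycs (0.87) was not called with library totals only (0.35). The list thus holds rises of genes on both sides: Fas is a death receptor and Casp8 its initiator caspase, while Cflar encodes the inhibitor FLIP and Birc3 an inhibitor of cell death. Cflar was at 132, 129 and 122 scaled CPM in control naive and at 410 and 409 in control treated libraries, and at 173, 153 and 137 in Sox2Hi naive and at 200 and 271 in Sox2Hi treated ones. Its rise was 1.68 in control and 0.61 in Sox2Hi tumours (edgeR adjusted p 7e-05 and 0.025), and the difference passed the test (-1.07, SE 0.23, edgeR adjusted p 0.0072). The difference of the Cflar responses was called in all 21 alternatives, each of the 10 that leave out a library included. The Sox2Hi rise itself kept its call in 8 of 17 alternatives. It was not called without Sox2Hi naive replicate 2 (0.61) or 3 (0.53) or Sox2Hi treated replicate 2 (0.31), nor with library totals only or factors from all genes.

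Fas rose by 2.16 in control and 1.56 in Sox2Hi tumours (edgeR adjusted p 0.00015 and 0.0034), and Birc3 by 1.32 and 0.90 (edgeR adjusted p 0.00068 and 0.017). In Sox2Hi tumours Fas lost its call without Sox2Hi treated replicate 2 (1.13), and Birc3 without Sox2Hi naive replicate 3 (0.75) or Sox2Hi treated replicate 1 (0.93) or 2 (0.81). Xiap, which inhibits caspases, had 0.23 and 0.24, which did not pass, though with factors from all genes the control value was 0.78 and called and the Sox2Hi value -0.031. With library totals only they were -0.28 and -0.11, not called. Between treated grafts Casp8, Cflar and Cycs were lower in Sox2Hi, and the difference of the responses was called for Cflar and Cycs. These are 3 of 11 and 2 of 11 tested, against 5.87% and 2.84% of all tested genes called lower. Cflar and Cycs averaged 100 scaled CPM or more, where 20.1% and 8.03% of genes were called lower. Casp8 averaged 20 to 100, where 6.45% were called lower between treated grafts. Cycs encodes cytochrome c, which is released when the mitochondrial pore opens, and was at 310 and 407 scaled CPM in control treated and 168 and 199 in Sox2Hi treated libraries (-0.97, SE 0.18, edgeR adjusted p 0.0088). Without Sox2Hi treated replicate 1 none of these 3 was called between treated grafts (Cycs -0.85, Cflar -0.59, Casp8 -0.48). Casp8 was also lost without control treated replicate 1 (-0.46) and Cflar without control treated replicate 2 (-0.93). The Cycs interaction (-0.82) was lost without control naive replicate 1 (-0.83), Sox2Hi naive replicate 2 (-0.79) or 3 (-0.76), or Sox2Hi treated replicate 1 (-0.70). Between the naive grafts edgeR called 0 of the 31 tested genes of the 3 lists, and 0 had an unadjusted p under 0.05, against 14.0% and 26.6% of all tested genes. DESeq2 called 0 and limma-voom with quality weights 6, against 16.6% and 36.6% of all tested genes.

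**Figure D5:**
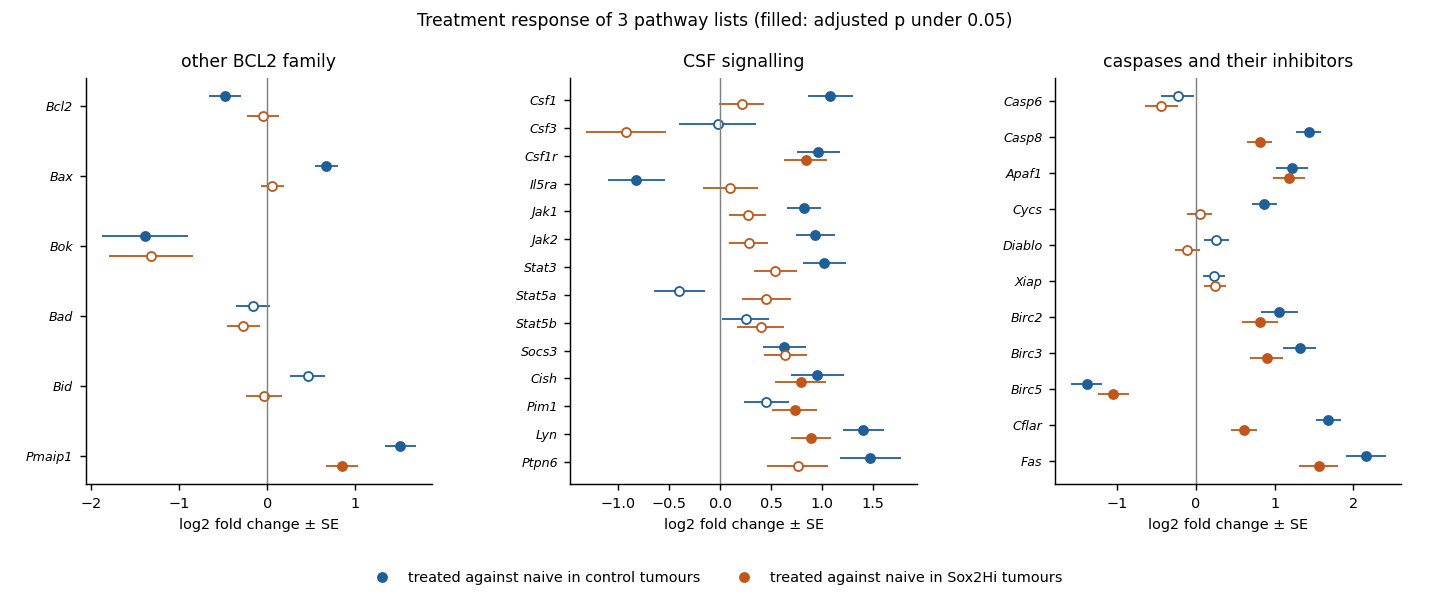
Treatment response, as log2 fold change with its standard error, of the tested genes of the 3 lists in control (blue) and Sox2Hi tumours (orange); filled points passed an adjusted p of 0.05. Cflar lies at 1.68 in control and 0.61 in Sox2Hi tumours, and Birc5 lies below 0 in both.

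The genes with the pattern most like that of Mcl1 over the 10 libraries were Spidr, Ppp1r10 and Celf2, with a root mean square difference in centred log2 CPM of 0.081, 0.087 and 0.093, where Mcl1 itself departed from its own mean by 0.39. Those most like Csf3r were Selplg (0.084), C5ar1 (0.11) and Itgb2 (0.12), against a departure of 0.58. Selplg encodes the ligand by which leukocytes roll on vessel walls, C5ar1 the receptor for complement C5a and Itgb2 the beta chain of leukocyte integrins. Those most like Csf2rb were Zfp429 (0.064), Krt83 (0.092) and Il10rb (0.11), against 0.42. Among the members, the nearest to both Mcl1 (0.14) and Csf2rb (0.11) was Csf2rb2, and the nearest to Csf3r was Bcl2l11 (0.19). The points share their libraries, and the values are a description.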

How the data were processed

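The files hold whole-number gene counts per library, which the authors deposited unnormalized. Per the labels' protocols, RNA came from sorted Tomato+ cells and a low-input kit, and per the submitters' processing notes kallisto 0.44.0 and mm10 were used, with no role or setting given. Kallisto divides reads that fit several transcripts between them, which bears on the Bcl2a1 and Csf2rb copies. Names, lengths and coordinates are from GENCODE M21 (GRCm38), which names 55144 of the 55385 mouse identifiers. Rows without such a name, at most 0.0401% of a library's counts, stayed in the totals and, where they passed the filter, in the tests. The 96 rows that are not mouse genes were left out of both.

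The 11274 genes averaging 5 CPM or more were tested with edgeR 4.0.16 (R 4.3.3): TMM factors from those genes, a quasi-likelihood fit of all 4 groups together (6 residual degrees of freedom), 5 contrasts, Benjamini-Hochberg adjustment over all tested genes, and calls at an adjusted p under 0.05. Scaled CPM are counts over the factor-adjusted library total. Within groups, pairs of libraries differed by a chi-square of at least 12.5 per degree of freedom, more than counting error alone gives. This measure cannot tell whether 2 libraries were prepared from the same RNA or animal. The fit was tested on simulated data with known changes in a small part of the genes, as many up as down. That setting does not bear on the choice of scaling. Naive libraries of the 2 grafts that share a title number deviated together (r = 0.273, 0.325 and 0.474 over genes), which is the basis for pairing them, as its meaning is not in the labels. The pair of treated libraries checked had r = -0.0952. Alternatives used limma 3.58.1 and DESeq2 1.42.0. Exact permutation tests of ratios were two-sided. The members and lists were chosen with earlier results of these data known. All members, a named part of each list and the 3 genes nearest in pattern to Mcl1, Csf3r and Csf2rb (log2 of CPM + 0.5) were to be described; other list genes (Bok, Il5ra, Lyn, Cycs and those in counts) were named after their values were seen. Some genes of the lists are not reported here and are in none of their counts. The fits with the Ddx3y class as a term, with silent-gene reads taken off, and with factors from all genes on the same tested genes were chosen after seeing the data.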

Additional observations from a re-analysis of the deposited data

Results flagged for a closer look

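The treatment response of Bcl2l1 differed between the grafts by a test of the difference itself, at -1.46 on the log2 scale for Sox2Hi minus control tumours (SE 0.43, edgeR adjusted p 0.033). The scaled CPM were 10.9, 20.9 and 13.2 in control naive, 47.4 and 28.1 in control treated, 26.3, 40.8 and 31.8 in Sox2Hi naive and at 31.4 and 28.8 in Sox2Hi treated libraries. Reads at the rate of silent genes would make up 12.4 to 18.1% of its counts in control naive and 1.76 to 2.71% in control treated libraries. Their part in the result was not tested beyond the fit without them (-1.62, edgeR adjusted p 0.059).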

How the results depend on the processing

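Beside each count of members called stands, in brackets, the share of all tested genes called in that fit. With the title number as a replicate block, which pairs the naive libraries, 1 member was again called between naive grafts (Bcl2l1, 1.14), and the counts for treatment of control (9) and Sox2Hi tumours (0) did not move. It called 5 between treated grafts (28.1%) and 3 for the interaction (24.0%), where the pairing is not shown. With the description number as a replicate block 3 were called for treatment of Sox2Hi tumours (25.9%) and 0 between treated grafts (15.4%). Treatment of control tumours gave 4 with library totals only (66.5%), 10 with factors from all genes (55.0%) or DESeq2 (58.1%), 8 with silent-gene reads taken off (49.4%) and 9 in the others that keep every library. Treatment of Sox2Hi tumours gave 1 with limma-voom (33.4%). Naive grafts gave 3 with limma-voom (Bcl2l1, Csf3r and Csf2ra; 36.6%), 4 with factors from all genes (21.4%) and 0 with the groups compared alone (0.160%). Treated grafts gave 9 with factors from all genes (35.7%) and 8 where all genes were tested too (13.7%), 2 with RLE factors (20.4%), 2 without a filter (8.12%) and 5 with DESeq2 (27.9%). They gave 0 with library totals only (26.2%), limma-voom (15.8%), the groups compared alone (7.41%) or silent-gene reads taken off (8.08%). The interaction gave 10 with factors from all genes (55.3%, or 27.5% where all genes were tested too), 3 with RLE factors (24.2%), 5 with DESeq2 (29.8%), 2 with limma-voom (24.4%), and 0 with library totals only (19.8%) or silent-gene reads taken off (11.6%). Leaving out 1 library gave 7 to 10 for treatment of control tumours (43.2 to 59.6%), 0 throughout for treatment of Sox2Hi tumours (1.77 to 17.0%), 0 to 2 between naive grafts (0.0355 to 17.7%), 0 to 3 between treated grafts (2.52 to 10.2%) and 0 to 4 for the interaction (13.7 to 22.9%). The cause was not tested. Precision is limited by 2 libraries in each treated group.

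Single genes changed sign as follows, of which Bcl2 (treatment of control tumours) alone was called in the fit of the report. Values with factors from all genes are those of either set of tested genes, except for the summed copies, where all genes were tested too. For treatment of Sox2Hi tumours these were Bcl2a1a (-0.16 with factors from all genes, -0.26 with totals only, -0.017 with the title block), Bcl2a1b (-0.046 with totals only) and Bcl2l1 (0.12 with the description block). Between naive grafts, with factors from all genes, Mcl1 was at 0.20, Bcl2a1a 0.27, Bcl2a1b 0.26, Bcl2a1d 0.32, Csf2rb 0.33 and Csf2rb2 0.17. With totals only, Bcl2a1a was at 0.020, Bcl2a1b 0.011, Bcl2a1d 0.070 and Csf2rb 0.068. RLE factors gave Bcl2a1d 0.0084 and Csf2rb 0.0082, DESeq2 gave 0.0083 and 0.0081, limma-voom gave Csf2rb 0.021, and the block in the naive libraries alone gave 0.0031 and 0.00052. Between treated grafts Bcl2l1 was at 0.10 with the description block, and the interaction of Csf2rb2 at 0.026 with totals only. In the lists, treatment of control tumours gave Bcl2 0.067 and Stat5a 0.16 with factors from all genes, Stat5a 0.079 with silent-gene reads taken off, and Bid -0.052, Pim1 -0.060 and Xiap -0.28 with totals only. Treatment of Sox2Hi tumours gave Csf1 -0.050 and Xiap -0.031 with factors from all genes, and Csf1 -0.11, Jak2 -0.069 and Xiap -0.11 with totals only.

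Leaving out 1 library, values between naive grafts ran from -0.26 to 0.023 (Bcl2a1a), -0.29 to 0.041 (Bcl2a1b), -0.23 to 0.12 (Bcl2a1d), -0.23 to 0.24 (Csf2rb) and -0.39 to 0.014 (Csf2rb2). For treatment of Sox2Hi tumours they ran from -0.22 to 0.33 (Bcl2a1a), -0.070 to 0.59 (Bcl2a1b), -0.59 to 0.16 (Bcl2a1d) and -0.27 to 0.052 (Bcl2l1). Between treated grafts Bcl2l1 ran from -0.78 to 0.0073, and the interaction of Csf2rb2 from -0.50 to 0.057.

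The summed Bcl2a1 copies were at -0.10 for treatment of Sox2Hi tumours and 0.27 between naive grafts with factors from all genes, and there the summed beta chains were at 0.32, against 0.0031 with RLE factors. Between treated grafts the summed copies were called with factors from all genes (-1.31) and RLE factors (-1.01), and with factors from all genes the interaction was called for the copies (-1.58) and the beta chains (-1.07). Of the single rows in place of the sum, Bcl2a1d gave 0.55 in control tumours and -0.15 in Sox2Hi tumours, and Bcl2a1a -0.90 between treated grafts. Leaving out 1 library, the summed copies ran from 0.63 to 1.35 for treatment of control tumours, -0.21 to 0.44 for treatment of Sox2Hi tumours, -0.27 to 0.054 between naive grafts, -1.28 to -0.55 between treated grafts and -1.25 to -0.48 for the interaction. The summed beta chains ran from 0.61 to 1.03 for treatment of control tumours, not called without control naive replicate 1 (0.75) or 3 (0.61), and from -0.23 to 0.23 between naive grafts.

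The ratios to the neutrophil markers changed sign without the 4 most abundant markers for Bcl2a1a between treated grafts (-0.0044), for Bcl2l1 (-0.58), Bcl2l11 (-0.59) and Csf3r (-0.54) with treatment of control tumours, for Csf2rb2 with treatment of Sox2Hi tumours (-0.52), and for Csf2rb2 (-0.044) and Mcl1 (-0.015) between naive grafts. Leaving out 1 library, the ratios between treated grafts ran from -0.32 to 0.34 (Bcl2a1a), -0.33 to 0.46 (Bcl2a1b) and -0.33 to 0.68 (Bcl2a1d). With treatment of control tumours they ran from -0.67 to 0.12 (Bcl2a1b), -0.32 to 0.40 (Bcl2l1), -0.048 to 0.10 (Bcl2l11), -0.25 to 0.083 (Csf2ra) and -0.28 to 0.44 (Csf3r). With treatment of Sox2Hi tumours they ran from -0.28 to 0.11 (Csf2rb) and -0.14 to 0.19 (Csf2rb2), and between naive grafts from -0.0020 to 0.078 (Csf2rb2) and -0.029 to 0.16 (Mcl1).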
